A study of Mus musculus with 16 samples.

Results

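The genes examined were those of the proteasome: every gene of the count table whose symbol begins with Psm, a letter from a to g and a digit, except Psmb8 and Psmb9 and names ending in -ps, with at least 10 counts over the 16 libraries. Of 40840 genes in the table, 51 names matched, 2 were left out by that rule, 0 ended in -ps and 1, Psma8, had 2 counts in all, which left 48 genes. Messenger RNA was measured in 1 line of p53-/-; Myc mouse hepatoblasts, labelled also as hepatocellular carcinoma and as tumor stage, that had been given sorafenib, an inhibitor of several kinases, or its solvent DMSO. Cells were taken after 48 h or after 7 days, which gives 4 groups of 4 replicates. Total counts were 24002696 to 28617629 with DMSO at 48 h, 16586254 to 27352812 with sorafenib at 48 h, 23279342 to 29654546 with DMSO at 7 days and 22302847 to 30828427 with sorafenib at 7 days. The labels do not say whether replicates were separate cultures, so p-values measure the spread between these samples. Bulk counts cannot tell fewer cells of a type from less of an RNA in each cell.

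The proteasome degrades proteins that carry ubiquitin. Its core is a stack of rings of alpha subunits, which gate the channel, and beta subunits, which cleave peptides. A regulatory particle caps it, with a base of ATPases that unfold the substrate and a lid that removes the ubiquitin. Assembly chaperones build both, and activators or an inhibitor can take the regulatory particle's place at the ends of the core. Expression of the subunits is raised by the transcription factor NFE2L1 when proteasome capacity falls short, and some beta subunits have replacements that interferon induces.

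Markers of the labelled cell type were partly absent. Of 11 hepatoblast markers 8 reached the count minimum. Hnf4a, a regulator of hepatocyte identity, was at 0 in every library, Alb (albumin) had 3 counts over the 16 libraries and Afp (alpha-fetoprotein) 61, with at most 14 in 1 library. The imprinted Dlk1 was the most abundant marker, and the biliary keratin Krt19 and the regulators Sox9 and Foxa2 were present. The hepatoblast markers summed to 35003 to 36371 normalized counts in the libraries with DMSO and 12889 to 14807 with sorafenib at 48 h, and to 18791 to 20605 and 6899.7 to 7165 at 7 days. Dlk1 made up most of these sums (a mean from 32234 to 10444 at 48 h), while Sox9 went from 213 to 664 and Foxa2 from 211 to 722. At 48 h 2 of the 8 were called higher and 5 lower with sorafenib, and at 7 days 2 higher and 6 lower.

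Markers of other cell types were also read. The 5 stromal markers were all above the minimum and summed to 118103 to 120287 normalized counts in the libraries with DMSO and 183535 to 199375 with sorafenib at 48 h, and to 110165 to 113826 and 124829.6 to 129506 at 7 days. These sums joined markers that went opposite ways at 48 h. With sorafenib the mean of Acta2 went from 4683 to 65481 and that of Col1a1 from 41939 to 81072, while Col3a1 went from 70779 to 46413 and Pdgfrb from 1668 to 977. Of 5 endothelial markers 4 were tested, Kdr the most abundant, with sums of 45.9 to 77.6, 122 to 151, 33.5 to 50.1 and 198 to 229.8 in the same order. Of 5 immune markers 1, Cd68, was tested, Adgre1 and Cd3e were at 0 in every library, and the sums were 60.2 to 76.2, 58.1 to 73.0, 58.7 to 88.1 and 63.0 to 71.5. Of 3 erythroid markers none reached the minimum, Hba-a1 was at 0, and no library summed to more than 2.59. With sorafenib 2 stromal markers were called higher and 2 lower at 48 h, and 2 and 3 at 7 days. In addition 2 endothelial markers were higher at each time. The part of these cell type markers in the proteasome results was not tested.

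The library of sorafenib at 48 h, replicate 2, stood apart from its group. Set against the other 3 replicates, its counts stepped down by a log2 of 0.73 at a place on chromosome 14. The median gene lay at a log2 of 0.09 before that place and at -0.64 from there on, through chromosomes 15 to 19 and X, whose medians were -0.63 to -0.65. In no other library did the strongest such step exceed 0.07. In that library 15.4% of counts fell in the lowered stretch, and in the others 22.4% to 24.5%. It held 4451 of the 20444 genes tested and 5 of the 48 proteasome genes: Psmb1, Psmd2, Psmd10, Psmg1 and Psmg2. The results most changed by that library are given with and without it. By a chi-square per gene between replicates, it differed from its group by up to 30.7, where the other 3 differed by 2.24 to 5.02. Other libraries without such a step also stood apart by that measure. DMSO 7 days replicate 4 differed from its group by 41.4 to 55.0, where the other 3 differed by 1.78 to 2.79. DMSO 48 h replicates 2 and 3 differed from 1 and 4 by 14.4 to 32.7, and within each pair by 4.83 and 4.19. The 10 most counted genes took 6.75% and 6.05% of counts in these 2 and 6.26% in DMSO 7 days replicate 4, against 3.68% to 4.93% elsewhere.

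The 48 genes took 0.597% to 0.626% of all counts with DMSO at 48 h, 0.613% to 0.640% with sorafenib at 48 h, 0.701% to 0.721% with DMSO at 7 days and 0.690% to 0.700% with sorafenib at 7 days. They comprised 14 core subunits (7 alpha and 7 beta), 2 replacement beta subunits, 9 base and 8 lid subunits, 3 base chaperones, 4 core chaperones and 6 activators or inhibitors. The remaining 2, Psmc3ip and Psme3ip1, share the name pattern and code for partners of other proteins, not for proteasome parts. Both stay in the counts and medians over the 48 genes. Per kb of coding sequence with DMSO at 48 h, core subunits ran from 2013 normalized counts (Psmb5) to 8932 (Psma7), with a median of 5257, and base and lid subunits from 1975 (Psmd13) to 5097 (Psmd7), with a median of 3066. Per kb of the whole canonical transcript these medians were 1949.8 and 2103, so the order of both classes depends on the length used. Psmb10 had 453 per kb of coding sequence and the thymic subunit Psmb11 1.48.

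The comparison of sorafenib with DMSO at 48 h asked what the drug did early, and that at 7 days what it did later. A gene is called where edgeR's quasi-likelihood F test, Benjamini-Hochberg adjusted over 20444 genes, gave a p under 0.05. At 48 h 23 of the 48 genes were called higher, where 26.9% of all tested genes were, and 7 lower, where 27.7% of all tested genes were. Their median log2 fold change was 0.07, against -0.05 for all tested genes. Without sorafenib 48 h replicate 2 the counts were 25 and 11 and the median 0.09. Leaving out DMSO 48 h replicate 2, 3 or 4 gave medians of 0.12, 0.04 and 0.03, and sorafenib 48 h replicate 3 one of 0.04. Without sorafenib replicate 2 no call was lost, and Psmd2 and Psmg1 (higher) and Psma1, Psma2, Psmb2 and Psmd5 (lower) were added. The count of lower calls was 11 without any 1 of the 4 sorafenib libraries at 48 h. With total counts as the only scaling 18 were called higher and 14 lower, and the median was 0.00, against -0.12 for all tested genes in that scaling. It called 4882 of the 20444 tested genes higher and 6481 lower. With at least 10 counts in every library 20 of the members were called higher and 13 lower. Of the 12158 genes tested in that fit, 4445 were higher and 4751 lower.

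At 7 days the split was the other way round, with 8 of the 48 called higher, where 28.9% of all tested genes were, and 23 lower, where 27.9% of all tested genes were. The median was -0.09, against 0.02 for all tested genes, and stayed negative under each scaling tried (-0.09 with DESeq2, -0.06 with total counts only). The lower calls were 16 with total counts only, where 5414 of 20444 tested genes were lower and their median was 0.04. With at least 1 count in any library they were 15, where 5345 of 27313 tested genes were lower. At least 10 counts in every library gave 19, where 4460 of 12158 tested genes were lower. Without sorafenib 48 h replicate 2, 9 were higher and 25 lower, with Psmb3 added among the higher and Psmb1 and Psmg3 among the lower. It enters here through the shared estimate of spread, the scaling and the genes that reach the count minimum (20353 without it). The test of the difference between both responses called 1 gene, Psmd5, higher at 7 days than at 48 h, where 15.5% of all tested genes were, and 25 lower, where 21.3% of all tested genes were. The median difference was -0.17, against 0.02 for all tested genes, and the counts without that library were 1 and 28. Total counts as the only scaling gave 1 higher and 17 lower members with a median of -0.07. Over all tested genes that scaling gave a median of 0.12 and moved the share of higher among the called from 42.1% (3162 higher and 4353 lower) to 55.6% (4125 and 3292). With at least 10 counts in every library 1 member was higher and 22 lower, where 3293 and 3534 of 12158 tested genes were.

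The time in culture was compared within each treatment. With DMSO 38 of the 48 were called higher at 7 days than at 48 h, where 23.9% of all tested genes were, and 1, Psme1, lower, where 25.5% of all tested genes were. The median was 0.27, against -0.01 for all tested genes. With sorafenib 21 were higher, where 17.5% of all tested genes were, and 4 lower, where 22.3% of all tested genes were, with a median of 0.10 against 0.01. Without sorafenib 48 h replicate 2 these counts were 39 and 3 with DMSO, and 25 and 6 with sorafenib. With at least 10 counts in every library 37 were higher with DMSO and 31 with sorafenib. In that fit 4216 and 3537 of 12158 tested genes were higher. The 4 lower calls with sorafenib (Psmb5, Psme1, Psme3 and Psmg2) were 2 without DMSO 48 h replicate 1 or 3, sorafenib 48 h replicate 1 or 4, or sorafenib 7 days replicate 1 or 2. The comparisons share libraries, so their values are not independent of each other. Those of DMSO at 48 h are the controls of the 48 h response and the start of the DMSO time course, and the difference between responses is made from all 16.

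Read across both times, 7 genes were called higher at 48 h and at 7 days: Psmc1, Psmc2, Psmc6, Psmd4, Psmd8, Psmd14 and Psme2b. Over all tested genes 18.5% showed that pattern. Another 9 were called higher at 48 h and lower at 7 days: Psma4, Psmc4, Psmc5, Psmd1, Psmd6, Psmd7, Psmd13, Psme3 and Psme4, a pattern of 3.09% of all tested genes. Psma5, Psma7, Psmb10, Psmd3, Psme1 and Psme3ip1 were called lower at both, as were 3687 of the 20444 tested genes, and 9 were called at neither, as were 29.9% of those tested. Some of these calls were lost in other fits. With total counts only, Psmc1, Psmc4 and Psmd1 lost the call at 48 h, and Psmd6, Psmd7 and Psme3ip1 that at 7 days. With at least 10 counts in every library Psmd1 at 48 h and Psmd7 at 7 days lost it, and with at least 1 in any library Psmd6, Psmd7 and Psme3ip1 at 7 days. Fits with only the libraries of 48 h left Psmc4 and Psmd1 uncalled. At 48 h Psmc4 was not called without DMSO replicate 3 or sorafenib replicate 1, Psmd1 without DMSO replicate 1, 3 or 4 or sorafenib replicate 3 or 4, and Psme2b without sorafenib replicate 4. At 7 days Psmd4 was not called without DMSO replicate 1, 2 or 3 or sorafenib replicate 2, 3 or 4. At that time Psmd6 was not called without replicate 1 of either treatment, Psmd7 without DMSO replicate 3 or sorafenib replicate 2, and Psme3ip1 without sorafenib replicate 2, 3 or 4. The plot of responses sets every gene except Psmb11, which had 31 counts in all, side by side.

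**Figure D1:**
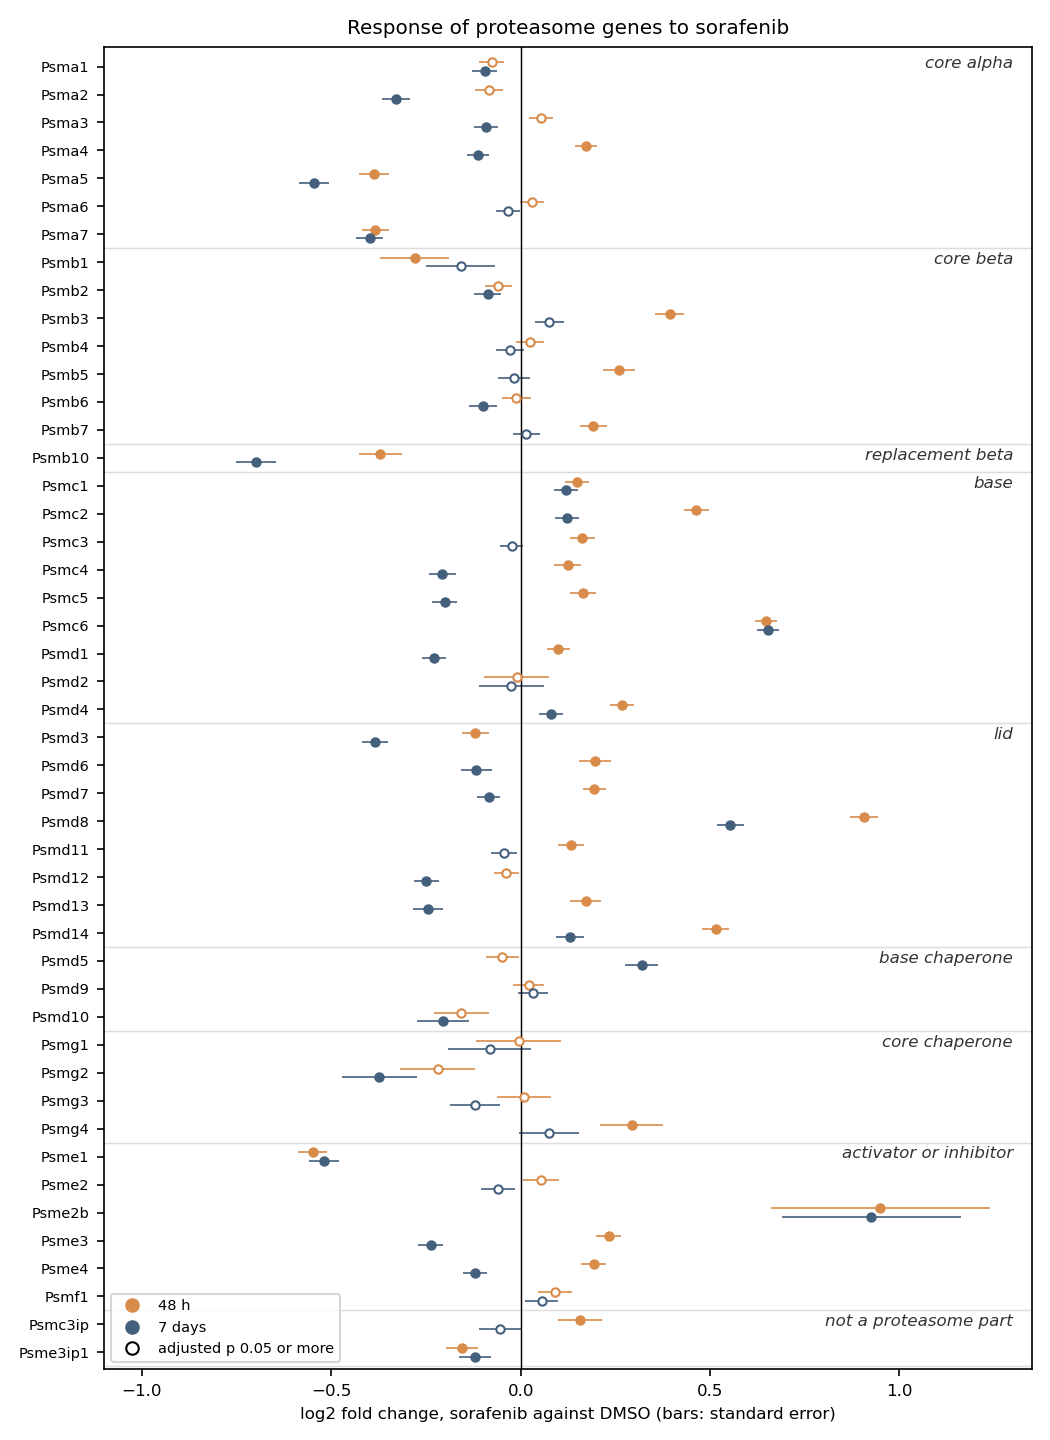
Log2 fold change of sorafenib against DMSO at 48 h and at 7 days for 47 proteasome genes by class, with bars for the standard error and open points for an adjusted p of 0.05 or more. Psmd8 lies farthest to the right of the well-counted genes at 48 h (0.91) and Psmb10 farthest to the left at 7 days (-0.70).

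The classes were set side by side without a test between them. Of the 17 base and lid subunits 14 were called higher and 1 lower with sorafenib at 48 h, with a median of 0.16, while of the 14 core subunits 4 were higher and 3 lower, with a median of 0.01. Of all tested genes 26.9% were higher and 27.7% lower. Without sorafenib 48 h replicate 2 these were 15 and 1 (0.15) and 4 and 6 (-0.02). The lower calls in the core were not particular to that library. They were 6 without sorafenib 48 h replicate 1 as well, and 5 without sorafenib 48 h replicate 3 or 4 or DMSO 48 h replicate 1, 3 or 4. Total counts as the only scaling left 10 base and lid subunits higher and 2 lower, with a median of 0.09, and gave 4 higher and 6 lower core subunits, with a median of -0.06. DESeq2's factors put that median at -0.01. The median of all tested genes was -0.12 with total counts and -0.07 with those factors. With total counts 4882 of the 20444 tested genes were higher and 6481 lower. The 6 activators or inhibitors had 3 higher and 1 lower, with a median of 0.14. Psme2b, with 270 counts in all, is among the 3 and enters that median.

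At 7 days 8 of the 14 core subunits were called lower, where 27.9% of all tested genes were, and the rest were not called, with a median of -0.09. Of these 8, 6 were alpha subunits, and with total counts only 4 of the 14 were called lower, where 5414 of 20444 tested genes were. Without sorafenib 48 h replicate 2 the core had 1 higher and 9 lower. The 8 became 5 without DMSO 7 days replicate 4 (Psma1, Psmb2 and Psmb6 lost) and 5 without sorafenib 7 days replicate 4 (Psma1, Psma3 and Psmb2 lost). Of the base and lid 6 were higher, where 28.9% of all tested genes were, and 8 lower, with a median of -0.04. Of the activators or inhibitors 1, the low-count Psme2b, was higher and 3 lower, with a median of -0.09. The response was lower at 7 days than at 48 h for 8 of 8 lid, 6 of 9 base and 7 of 14 core subunits and 2 of 6 activators or inhibitors, where 21.3% of all tested genes were, with medians of -0.30, -0.19, -0.12 and -0.07. With total counts only 6, 4, 4 and 2 were lower, and these medians were -0.20, -0.09, -0.02 and 0.02, the last with the other sign. The median of all tested genes was then 0.12, and 3292 of 20444 were called lower. The counts without sorafenib 48 h replicate 2 were 8, 7 (with Psmd2), 7 and 2, and the medians -0.28, -0.18, -0.11 and -0.11.

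The time course was read by class as well. With DMSO all 17 base and lid subunits rose from 48 h to 7 days, with a median of 0.38, and 12 of 14 core subunits rose, with a median of 0.18. Of all tested genes 23.9% were higher, and their median was -0.01. With total counts only 17 and 7 were higher with DMSO, where 4119 of 20444 tested genes were. With sorafenib 14 base and lid and 5 core subunits rose, with medians of 0.18 and 0.06, where 17.5% of all tested genes were higher and their median was 0.01. These counts were 14 and 6 with sorafenib and 17 and 13 with DMSO without sorafenib 48 h replicate 2. DESeq2 called 15 and 8 higher with sorafenib, where 3966 of 20444 tested genes were. Set against the mean of DMSO at 48 h, the median base and lid subunit lay at 0.12 to 0.22 in the 4 libraries of sorafenib at 48 h, 0.35 to 0.39 in those of DMSO at 7 days and 0.35 to 0.37 in those of sorafenib at 7 days. The median core subunit lay at -0.03 to 0.05, 0.16 to 0.20 and 0.08 to 0.10 in the same order. Among the libraries of sorafenib at 48 h, replicate 2 was the highest in both classes (0.22 and 0.05). The other replicates lay at 0.12 to 0.18 for base and lid and at -0.03 to 0.01 for the core.

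**Figure D2:**
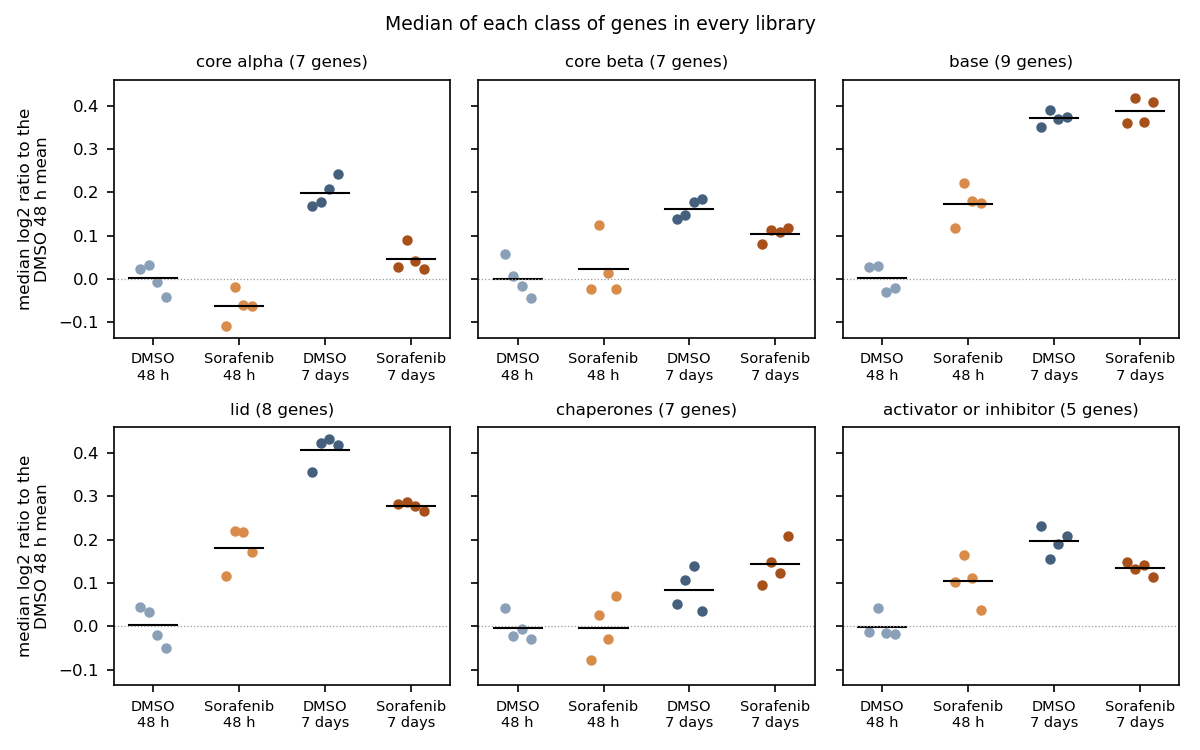
Median log2 ratio of each class of subunits to the mean of DMSO at 48 h, with 1 point per library and a line at the mean of the 4 libraries; Psme2b, with few counts, is left out of the activators. In the base panel both 7-day groups lie above both 48 h groups.

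Values in each library follow for the genes with the largest responses of their class and for the catalytic subunits, in the order of replicates 1 to 4 and with GRCm39 positions. A gene that rose or fell at 48 h or at 7 days did so against DMSO at that same time. Psmb5 (chromosome 14, 54850776 to 54855481), the chymotrypsin-like catalytic subunit of the core, had 1693, 1631, 1586 and 1469 normalized counts with DMSO at 48 h, 1949, 2007, 1839 and 1853 with sorafenib at 48 h, 1756, 1766, 1776 and 1812 with DMSO at 7 days, and 1686, 1769, 1792 and 1781 with sorafenib at 7 days. All sorafenib libraries at 48 h lay above all DMSO libraries at 48 h, and at 7 days the groups overlapped. Psmb5 rose at 48 h (log2 0.26, SE 0.04, adjusted p 2.58e-05, edgeR's quasi-likelihood F test, Benjamini-Hochberg adjusted, n = 4 per group) and was not called at 7 days (log2 -0.02, adjusted p 0.762), and its response was lower at 7 days (log2 -0.28, adjusted p 9.43e-04). Of its 50-base stretches 48.7% also occur in other genes, so counts could be shared with copies.

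Psmb6 (chromosome 11, 70416183 to 70418684), the caspase-like subunit, had 4579, 4428, 4322 and 4085 normalized counts with DMSO at 48 h, 4099, 4564, 4399 and 4217 with sorafenib at 48 h, 4841, 5069, 5064 and 5069 with DMSO at 7 days, and 4613, 4708, 4667 and 4723 with sorafenib at 7 days. The groups overlapped at 48 h, and at 7 days all sorafenib libraries lay below all DMSO libraries. Psmb6 was not called at 48 h (log2 -0.01) and fell at 7 days (log2 -0.10, SE 0.04, adjusted p 0.0299, edgeR's quasi-likelihood F test, Benjamini-Hochberg adjusted). That call was lost with total counts only, with either other count minimum, and without DMSO 7 days replicate 2, 3 or 4 or sorafenib 7 days replicate 1 or 3. Psmb7 (chromosome 2, 38478044 to 38534099), the trypsin-like subunit, had 3944, 3951, 3799 and 3744 normalized counts with DMSO at 48 h, 4065, 4431, 4609 and 4526 with sorafenib at 48 h, 4791, 4842, 4702 and 4774 with DMSO at 7 days, and 4848, 4819, 4818 and 4825 with sorafenib at 7 days. Its groups were apart at 48 h, sorafenib above, and overlapped at 7 days. Psmb7 rose at 48 h (log2 0.19, SE 0.04, adjusted p 9.05e-05, edgeR's quasi-likelihood F test, Benjamini-Hochberg adjusted) and was not called at 7 days (log2 0.02). Its exons overlap those of Nek6 on the other strand, and the strand setting of the counting is not given in the sources used here.

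Among the other beta subunits, the structural Psmb3 (chromosome 11, 97594073 to 97604335) had 1774, 1732, 1739 and 1786 normalized counts with DMSO at 48 h, 2239, 2421, 2368 and 2209 with sorafenib at 48 h, 2052, 2234, 2237 and 2246 with DMSO at 7 days, and 2369, 2256, 2319 and 2306 with sorafenib at 7 days. The sorafenib libraries lay above the DMSO libraries at both times, with a narrow gap at 7 days. Psmb3 rose at 48 h (log2 0.39, SE 0.04, adjusted p 2.33e-08, edgeR's quasi-likelihood F test, Benjamini-Hochberg adjusted) and was not called at 7 days (log2 0.08, adjusted p 0.0936, or 0.0310 without sorafenib 48 h replicate 2; also called with the offset, either other count minimum or only the 7-day libraries). The response was lower at 7 days by the test of the difference (log2 -0.32, adjusted p 7.88e-05). Other genes hold 60.4% of its 50-base stretches. Psmb1 (chromosome 17, 15691080 to 15720013), also structural and inside the lowered stretch of that library, had 5750.5, 5549.7, 5344 and 5454 normalized counts with DMSO at 48 h, 5015, 3194, 4997 and 4963 with sorafenib at 48 h, 5205, 5161, 5215 and 5331 with DMSO at 7 days, and 4724, 4744, 4636 and 4629 with sorafenib at 7 days. All sorafenib libraries lay below all DMSO libraries at each time, replicate 2 at 48 h farthest. Psmb1 fell at 48 h with log2 -0.28 (SE 0.09, adjusted p 0.0129, edgeR's quasi-likelihood F test, Benjamini-Hochberg adjusted), or with -0.15 (adjusted p 4.47e-06) without that library. With only the libraries of 48 h it was not called. At 7 days it was called without that library, with an offset for the lowered stretch and with only the 7-day libraries, and in no other fit (log2 -0.16, adjusted p 0.144 with and 1.43e-07 without).

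The alpha subunit Psma5 (chromosome 3, 108164086 to 108187298), part of the outer ring of the core, had 1959.8, 2068, 1983 and 1892 normalized counts with DMSO at 48 h, 1406, 1598, 1498 and 1539 with sorafenib at 48 h, 2211, 2236, 2283 and 2337 with DMSO at 7 days, and 1533, 1550.4, 1527 and 1603 with sorafenib at 7 days. All sorafenib libraries lay below all DMSO libraries at 48 h and at 7 days. Psma5 fell at 48 h (log2 -0.39, SE 0.04, adjusted p 6.75e-08, edgeR's quasi-likelihood F test, Benjamini-Hochberg adjusted) and at 7 days (log2 -0.55, SE 0.04, adjusted p 2.84e-10), and other genes hold 47.9% of its 50-base stretches. Psma4 (chromosome 9, 54858066 to 54866448), of the same ring, had 3746, 3830.2, 3759 and 3689 normalized counts with DMSO at 48 h, 4103, 4388, 4187 and 4254 with sorafenib at 48 h, 4366, 4461, 4446 and 4624 with DMSO at 7 days, and 4149.5, 4148, 4095 and 4159 with sorafenib at 7 days. At 48 h its sorafenib libraries lay above the DMSO libraries, and at 7 days below them. Psma4 rose at 48 h (log2 0.17, adjusted p 4.24e-05) and fell at 7 days (log2 -0.11, adjusted p 0.00248), a difference of -0.29 on the log2 scale (SE 0.04, adjusted p 1.42e-05, edgeR's quasi-likelihood F test, Benjamini-Hochberg adjusted). Psma7, the most abundant core subunit per kb, fell at both times (log2 -0.38 and -0.40). It was named after its values were seen. In the core, the 48 h values without sorafenib 48 h replicate 2 were 0.24 for Psmb5, 0.19 for Psmb7, 0.37 for Psmb3, -0.41 for Psma5, 0.16 for Psma4 and -0.39 for Psma7, all called. The differences between times were -0.25 for Psmb5, -0.30 for Psmb3 and -0.27 for Psma4.

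In the base, the ATPase Psmc6 (chromosome 14, 45567215 to 45587169) had 4857, 4840.0, 4733 and 4615 normalized counts with DMSO at 48 h, 7109.6, 7597, 7722 and 7416 with sorafenib at 48 h, 6009, 5840.4, 5842 and 5809.9 with DMSO at 7 days, and 9348, 9273, 9189 and 9146 with sorafenib at 7 days. All sorafenib libraries lay above all DMSO libraries at each time. Psmc6 rose at 48 h (log2 0.65, SE 0.03, adjusted p 2.06e-13, edgeR's quasi-likelihood F test, Benjamini-Hochberg adjusted) and at 7 days (log2 0.65, SE 0.03, adjusted p 1.58e-13), and the responses were not called different (log2 0.00, adjusted p 0.953). The ATPase Psmc5 (chromosome 11, 106146951 to 106156291) had 3755, 3890.1, 3710.1 and 3785 normalized counts with DMSO at 48 h, 3974, 4414, 4297 and 4284 with sorafenib at 48 h, 5494, 5462, 5535 and 5840.5 with DMSO at 7 days, and 4842, 4867, 4824 and 4899.9 with sorafenib at 7 days. Its sorafenib libraries lay above the DMSO libraries at 48 h and below them at 7 days. Psmc5 rose at 48 h (log2 0.16, adjusted p 3.22e-04) and fell at 7 days (log2 -0.20, adjusted p 3.12e-05), a difference of -0.36 (SE 0.05, adjusted p 3.79e-06, edgeR's quasi-likelihood F test, Benjamini-Hochberg adjusted). Its exons overlap those of Smarcd2 on the other strand. Psmd2, the large scaffold of the base and inside the lowered stretch, had a log2 of -0.01 at 48 h (adjusted p 0.929) and, without sorafenib 48 h replicate 2, of 0.12 (adjusted p 5.13e-05).

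In the lid, the scaffold subunit Psmd8 (chromosome 7, 28873612 to 28880135) had 3726, 3686, 3552 and 3488 normalized counts with DMSO at 48 h, 6731, 7193, 6738 and 6428 with sorafenib at 48 h, 4944, 5373, 5339.8 and 5243 with DMSO at 7 days, and 7541, 7771, 7667 and 7693 with sorafenib at 7 days. All sorafenib libraries lay above all DMSO libraries at each time. Psmd8 rose at 48 h (log2 0.91, SE 0.04, adjusted p 2.65e-14, edgeR's quasi-likelihood F test, Benjamini-Hochberg adjusted) and less at 7 days (log2 0.55, SE 0.04, adjusted p 5.18e-11), with a difference of -0.35 (adjusted p 1.45e-05). Without sorafenib 48 h replicate 2 the 48 h value was 0.88. Psmd13 (chromosome 7, 140461854 to 140478560), another scaffold subunit, had 2301, 2314, 2232 and 2064 normalized counts with DMSO at 48 h, 2426, 2525, 2611 and 2471 with sorafenib at 48 h, 2891, 3088, 3056 and 3067 with DMSO at 7 days, and 2429, 2603, 2623 and 2554 with sorafenib at 7 days. The sorafenib libraries were all above those of DMSO at 48 h and all below them at 7 days. Psmd13 rose at 48 h (log2 0.17, adjusted p 0.00123) and fell at 7 days (log2 -0.25, adjusted p 2.45e-05), a difference of -0.42 (SE 0.06, adjusted p 6.99e-06, edgeR's quasi-likelihood F test, Benjamini-Hochberg adjusted). Its exons overlap those of Cox8b on the other strand. The deubiquitinase of the lid, Psmd14, rose at both times (log2 0.51 and 0.13), while Psmd3 fell at both (log2 -0.12 and -0.38), although its libraries overlapped at 48 h. Both were named after their values were seen. For base and lid the 48 h values without sorafenib 48 h replicate 2 were 0.64 for Psmc6, 0.15 for Psmc5, 0.17 for Psmd13, 0.51 for Psmd14 and -0.15 for Psmd3, all called. The differences were -0.35 for Psmc5, -0.32 for Psmd8 and -0.42 for Psmd13, and 0.01 for Psmc6, which was not called.

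**Figure D3:**
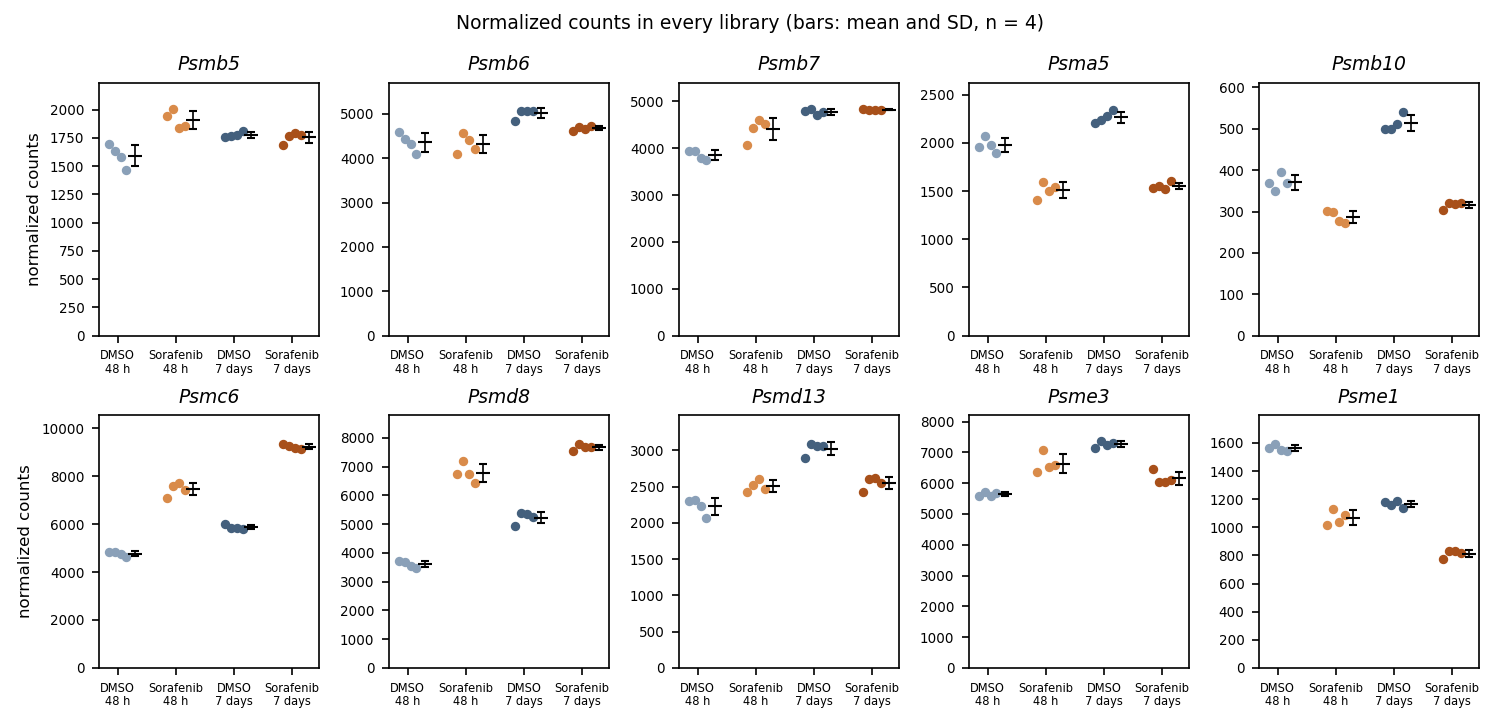
Normalized counts of 10 proteasome genes in every library, with the mean and SD of the 4 libraries of each group. Psmd8 and Psmc6 lie higher with sorafenib at both times, Psma5, Psmb10 and Psme1 lower at both, and Psmd13 and Psme3 higher at 48 h and lower at 7 days.

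The 7 chaperones had a median of 1334 normalized counts per kb of coding sequence with DMSO at 48 h, or 549.9 per kb of canonical transcript, both below the medians of the core and of the base and lid. The base chaperone Psmd5 (chromosome 2, 34739746 to 34764980) had 1679, 1687, 1558 and 1597 normalized counts with DMSO at 48 h, 1517, 1719, 1547 and 1532 with sorafenib at 48 h, 1569.9, 1682, 1603 and 1670.4 with DMSO at 7 days, and 2056, 2103, 1944 and 2042 with sorafenib at 7 days. Its groups overlapped at 48 h, and at 7 days all sorafenib libraries lay above all DMSO libraries. Psmd5 was not called at 48 h (log2 -0.05; called lower, at -0.09 with adjusted p 0.0360, without sorafenib 48 h replicate 2, and lower with total counts only) and rose at 7 days (log2 0.32, SE 0.04, adjusted p 2.42e-06, edgeR's quasi-likelihood F test, Benjamini-Hochberg adjusted). It was the 1 gene whose response was higher at 7 days (log2 0.37, adjusted p 7.87e-05). Psmd10 (chromosome X, 139847687 to 139857477), the base chaperone gankyrin, inside the lowered stretch, had 434, 411, 398 and 428 normalized counts with DMSO at 48 h, 361, 308, 409 and 409 with sorafenib at 48 h, 426, 449.7, 460.1 and 424 with DMSO at 7 days, and 359.9, 388, 394 and 385 with sorafenib at 7 days. The groups overlapped at 48 h and were apart at 7 days, sorafenib below. Psmd10 was not called at 48 h (log2 -0.16, or -0.08 without that library) and fell at 7 days (log2 -0.20, SE 0.07, adjusted p 0.0161, edgeR's quasi-likelihood F test, Benjamini-Hochberg adjusted). At 48 h it was called lower with DESeq2, its size factors, total counts only or at least 10 counts in every library, and without DMSO replicate 3 or sorafenib replicate 3 or 4. The 7-day call was lost with at least 1 count in any library and without DMSO replicate 3 or sorafenib replicate 1.

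Of the core chaperones, Psmg4 (chromosome 13, 34346937 to 34362166) had 325, 281, 328 and 308 normalized counts with DMSO at 48 h, 421, 420.4, 332 and 360.0 with sorafenib at 48 h, 361, 352, 352 and 363 with DMSO at 7 days, and 345, 369.5, 357 and 431 with sorafenib at 7 days. Its sorafenib libraries lay above those of DMSO at 48 h and overlapped them at 7 days. Psmg4 rose at 48 h (log2 0.29, SE 0.08, adjusted p 0.00522, edgeR's quasi-likelihood F test, Benjamini-Hochberg adjusted) and was not called at 7 days (log2 0.07). The difference was called without sorafenib 7 days replicate 4. Its 48 h value was 0.25 without sorafenib 48 h replicate 2. Psmg2 (chromosome 18, 67774386 to 67787253), the partner of Psmg1 and inside the lowered stretch, had 1436, 1419, 1393 and 1348 normalized counts with DMSO at 48 h, 1326, 804, 1347 and 1303 with sorafenib at 48 h, 1292, 1248, 1359.5 and 1234 with DMSO at 7 days, and 974, 1015, 979 and 993 with sorafenib at 7 days. Each group with sorafenib lay below its DMSO group. Psmg2 was not called at 48 h (log2 -0.22, adjusted p 0.0708; -0.08 and 0.0865 without sorafenib 48 h replicate 2) and fell at 7 days (log2 -0.37, SE 0.10, adjusted p 0.00311, edgeR's quasi-likelihood F test, Benjamini-Hochberg adjusted). At 48 h it was called lower with total counts only, at least 10 counts in every library or the offset, and without sorafenib replicate 1, 3 or 4. The difference between its responses was called without replicate 2 and with the offset (-0.28) (log2 -0.16, adjusted p 0.433 with it, and -0.30, 6.00e-06 without). Psmg1 had a log2 of -0.01 at 48 h with that library and 0.15 (adjusted p 0.00109) without.

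Among the activators, Psme3 (chromosome 11, 101206777 to 101215813), the nuclear PA28 gamma, had 5593, 5721, 5588 and 5676 normalized counts with DMSO at 48 h, 6367, 7074, 6525 and 6574 with sorafenib at 48 h, 7148, 7369, 7232 and 7288 with DMSO at 7 days, and 6458, 6031, 6035 and 6107 with sorafenib at 7 days. Its sorafenib libraries lay above the DMSO libraries at 48 h and below them at 7 days. Psme3 rose at 48 h (log2 0.23, adjusted p 4.71e-06) and fell at 7 days (log2 -0.24, adjusted p 3.23e-06), a difference of -0.47 (SE 0.05, adjusted p 1.06e-07, edgeR's quasi-likelihood F test, Benjamini-Hochberg adjusted). Psme4, the PA200 activator, went the same ways (log2 0.19 and -0.12, difference -0.31, adjusted p 1.79e-05). Psme2b (chromosome 11, 48836181 to 48837017), a single-exon copy of Psme2, had 5.86, 9.54, 13.3 and 7.78 normalized counts with DMSO at 48 h, 22.4, 12.1, 12.4 and 23.8 with sorafenib at 48 h, 14.1, 13.7, 14.7 and 13.0 with DMSO at 7 days, and 24.7, 24.4, 24.5 and 32.5 with sorafenib at 7 days. These low counts overlapped at 48 h and were apart at 7 days, sorafenib above. Psme2b rose at 48 h (log2 0.95, SE 0.29, adjusted p 0.00896, edgeR's quasi-likelihood F test, Benjamini-Hochberg adjusted) and at 7 days (log2 0.93, SE 0.24, adjusted p 0.00233), but other genes hold 69.4% of its 50-base stretches, so its counts could come from Psme2. The inhibitor Psmf1 was called at neither time (log2 0.09 and 0.06), but higher at 48 h with at least 1 count in any library (0.13). Leaving out sorafenib 48 h replicate 2 gave 48 h values of 0.20 for Psme3, 0.17 for Psme4 and 1.06 for Psme2b, all called, and differences of -0.44 for Psme3 and -0.29 for Psme4.

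Psme1 and Psme2 code for the partners of the PA28 alpha-beta ring, which interferon induces, and were set side by side after their values were seen. Psme1 had 1562 ± 21.9 normalized counts (SD, n = 4) with DMSO at 48 h, 1069 ± 50.9 with sorafenib at 48 h, 1166 ± 19.5 with DMSO at 7 days and 813 ± 25.5 with sorafenib at 7 days. It fell with sorafenib at 48 h (log2 -0.55, SE 0.04, adjusted p 1.53e-10, edgeR's quasi-likelihood F test, Benjamini-Hochberg adjusted) and at 7 days (log2 -0.52, SE 0.04, adjusted p 4.15e-10), and with time under DMSO (log2 -0.42) and under sorafenib (log2 -0.39). Psme2 was not called in either response (log2 0.05 and -0.06). With sorafenib 48 h replicate 2 left out the 48 h values were -0.57 for Psme1 and 0.02 for Psme2, and Psme1 alone was called. The ratio of Psme1 to Psme2 per kb of coding sequence was 1.96 ± 0.0824, 1.29 ± 0.0396, 1.27 ± 0.0348 and 0.927 ± 0.0238 (SD) in the same order. Exons of Psme1 overlap those of Emc9, and exons of Psme2 those of Rnf31, on the other strand, and other genes hold 59.2% of the 50-base stretches of Psme2.

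Psmb10 (chromosome 8, 106662362 to 106665077), which interferon induces to take the place of Psmb7, had 369, 349.6, 395 and 369.8 normalized counts with DMSO at 48 h, 302, 298, 278 and 273 with sorafenib at 48 h, 501, 500.3, 511 and 542 with DMSO at 7 days, and 305, 321, 317 and 322 with sorafenib at 7 days. All sorafenib libraries lay below all DMSO libraries at each time. Psmb10 fell at 48 h (log2 -0.37, SE 0.06, adjusted p 1.17e-05, edgeR's quasi-likelihood F test, Benjamini-Hochberg adjusted) and further at 7 days (log2 -0.70, SE 0.05, adjusted p 4.72e-10), with a difference of -0.33 (adjusted p 0.00212; -0.39 at 48 h and a difference of -0.31 without sorafenib 48 h replicate 2, both called), and rose with time under DMSO (log2 0.47). Its ratio to Psmb7 per kb of coding sequence was 0.0976 ± 0.00680, 0.0665 ± 0.00678, 0.109 ± 0.00467 and 0.0665 ± 0.00181 (SD, n = 4) in the order of DMSO and sorafenib at 48 h, then DMSO and sorafenib at 7 days. Psmb11 (chromosome 14, 54858890 to 54867013), the subunit of the thymic proteasome, had 0, 3.47, 1.02 and 0.864 normalized counts with DMSO at 48 h, 0, 3.02, 0.952 and 1.14 with sorafenib at 48 h, 2.16, 2.57, 1.73 and 0 with DMSO at 7 days, and 2.25, 4.06, 1.75 and 4.92 with sorafenib at 7 days. Its groups overlapped at both times, and a difference was not detectable at this depth.

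**Figure D4:**
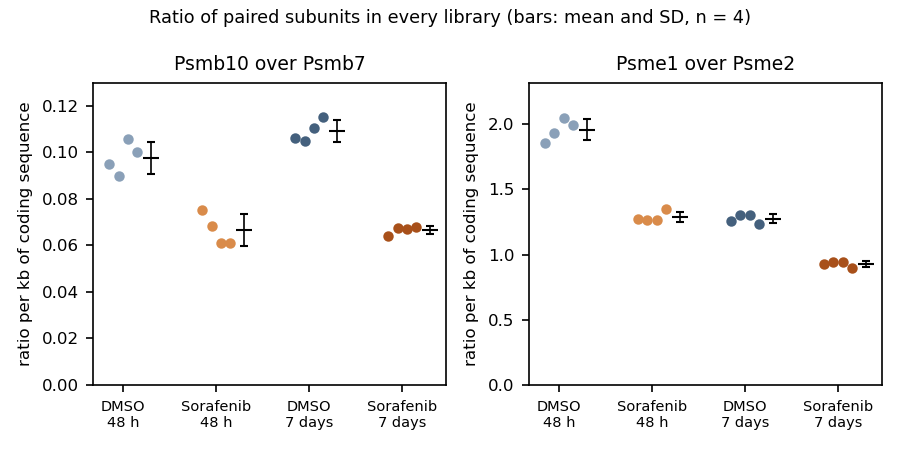
Ratio of Psmb10 to Psmb7 and of Psme1 to Psme2 per kb of coding sequence in every library, with the mean and SD of each group. Both ratios are lower with sorafenib than with DMSO at each time in all libraries.

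The 2 genes that only share the name pattern were read in the same way. Psmc3ip (chromosome 11, 100981704 to 100986276), a cofactor of meiotic recombinases, had 473, 449, 449 and 391 normalized counts with DMSO at 48 h, 476, 493, 488 and 505 with sorafenib at 48 h, 515, 491, 512 and 499.9 with DMSO at 7 days, and 513, 458, 473 and 503 with sorafenib at 7 days. The groups were apart at 48 h, sorafenib above, and overlapped at 7 days. Psmc3ip rose at 48 h (log2 0.16, SE 0.06, adjusted p 0.0274, edgeR's quasi-likelihood F test, Benjamini-Hochberg adjusted) and was not called at 7 days. The 48 h call was lost with total counts only, at least 10 counts in every library or only the 48 h libraries, and without DMSO replicate 3 or 4 or sorafenib replicate 1, 3 or 4. Exons of Psmc3ip overlap those of Mlx on the other strand over 1109 bases. Psme3ip1 (chromosome 8, 95300023 to 95328625), a partner of PSME3, had 1316, 1342, 1357 and 1432 normalized counts with DMSO at 48 h, 1219, 1207, 1186 and 1282 with sorafenib at 48 h, 1428, 1389, 1408 and 1418 with DMSO at 7 days, and 1408, 1283, 1236 and 1270.0 with sorafenib at 7 days. At 48 h all sorafenib libraries lay below all DMSO libraries, and at 7 days they overlapped. Psme3ip1 fell at 48 h (log2 -0.15, SE 0.04, adjusted p 0.00459, edgeR's quasi-likelihood F test, Benjamini-Hochberg adjusted) and at 7 days (log2 -0.12, SE 0.04, adjusted p 0.0204). Both were called at 48 h without sorafenib 48 h replicate 2, with 0.16 for Psmc3ip and -0.15 for Psme3ip1.

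Genes that act beside the proteasome were counted for the same comparisons, in which 26.9% of all tested genes were higher and 27.7% lower at 48 h, and 28.9% and 27.9% at 7 days. Of 13 other proteasome parts and helpers 12 were in the table; with sorafenib 7 were called higher and 2 lower at 48 h (median 0.21) and 4 and 4 at 7 days (median 0.02). Pomp, which matures the core, fell at both times (log2 -0.47 and -0.61), the ubiquitin receptor Adrm1 rose at 48 h and fell at 7 days (0.19 and -0.13), and the stress-induced adaptor Zfand2a rose at both (0.63 and 0.94). Of 11 genes that control NFE2L1 8 were higher and 2 lower at 48 h (median 0.43), and 6 and 2 at 7 days (median 0.49). The medians with total counts only were 0.36 and 0.51. Nfe2l1 itself rose from 5527 ± 89.0 to 13299 ± 299.7 normalized counts at 48 h (SD, n = 4) and from 5647 ± 78.7 to 11626 ± 119 at 7 days (log2 1.27, SE 0.03, adjusted p 9.55e-19 and log2 1.04, SE 0.03, adjusted p 1.28e-17, edgeR's quasi-likelihood F test, Benjamini-Hochberg adjusted). The retrotranslocation adaptor Sel1l rose at both times (log2 1.41 and 0.90), as did the NFE2L1 partner Mafk (1.13 and 0.69), while the ligase Syvn1 fell (-0.71 and -0.37).

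Of 11 genes for the p97 unfoldase and shuttle factors 7 were higher and 2 lower at 48 h (median 0.27), and 5 and 3 at 7 days (median 0.06), with the p97 adaptor Faf1 higher at both (log2 1.05 and 0.76). Of 7 peptidases that trim proteasome products 2 were higher and 3 lower at 48 h (median 0.06), and 1 and 5 at 7 days (median -0.20). The higher and lower calls at 48 h without sorafenib 48 h replicate 2 were 9 and 2 for other parts and helpers, 8 and 2 for control of NFE2L1, 8 and 2 for p97 and shuttle factors and 2 and 3 for the peptidases. Their medians were 0.20, 0.44, 0.31 and 0.02. At 7 days the calls were 6 and 4, 6 and 2, 6 and 3 and 1 and 6. In the same fit the 48 h values of single genes were -0.47 for Pomp, 0.16 for Adrm1, 0.58 for Zfand2a, 1.26 for Nfe2l1, 1.39 for Sel1l, 1.12 for Mafk, -0.65 for Syvn1 and 1.01 for Faf1. The response of Nln fell by 1.01 on the log2 scale between times, or by 0.97 without that library.

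Promoters were searched on both strands for 4 short motifs, from 250 bases before to 50 bases after the start of each Ensembl canonical transcript (GENCODE vM39 on GRCm39), chosen after values were seen. A match describes the sequence and says nothing of binding. TGACNNNGC, the core of the antioxidant response element, can be bound by NFE2L1. It was in 8 of 49 promoters of the listed genes (16.3%, Psma8, Psmc3ip and Psme3ip1 included) and in 13.0% of 19302 protein-coding promoters. It was in 3 of 7 core beta, 0 of 8 core alpha and 3 of 17 base and lid promoters. Of the genes with it, Psmb5, Psmc6 and Psmd7 were called higher at 48 h. Psmb2, Psmb6, Psmd9, Psmd12 and Psmg2 also had it and were not called higher at 48 h. CCAAT, the site of the factor NF-Y, was in 38.8% and 39.4%. GGAAG, an ETS core, was in 87.8% and 73.0%, with 17 of 17 base and lid promoters. TGATGNAAT, a site of C/EBP-ATF pairs, was in none of the 49 and in 0.689% of all.

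The 170 bases of GRCm39 before the annotated start are shown for 7 genes that were called at 48 h. They are the well-counted genes with the largest rises (Psmd8, Psmc6 and Psmd14) and falls (Psme1, Psma5 and Psma7), and Psmb5. Psmb5 was added as a catalytic subunit, although other genes, such as Psmc2 and Psmb3, rose more. Sequences run 5' to 3' on the strand of the gene, in lower case with capitals marking the matches. Psmd8 (chr7:28880136-28880305, minus strand), Psmc6 (chr14:45567045-45567214, plus strand), Psmd14 (chr2:61541856-61542025, plus strand) and the catalytic Psmb5 (chr14:54855482-54855651, minus strand) rose at 48 h, and Psma5 (chr3:108163916-108164085, plus strand), Psma7 (chr2:179684249-179684418, minus strand) and Psme1 (chr14:55815581-55815750, plus strand) fell. TGACNNNGC matches stand in the Psmc6 and Psmb5 stretches, GGAAG in those of Psmc6, Psmd14, Psme1 and Psmb5, and CCAAT in that of Psmd14; the stretches of Psmd8, Psma5 and Psma7 have none of the 4, although the longer windows searched above hold GGAAG for Psmd8 and Psma5 and CCAAT for Psma7. The annotated genes of Psme1 and Psma7 begin upstream of the starts used here, which may not be their main starts.
Psmd8: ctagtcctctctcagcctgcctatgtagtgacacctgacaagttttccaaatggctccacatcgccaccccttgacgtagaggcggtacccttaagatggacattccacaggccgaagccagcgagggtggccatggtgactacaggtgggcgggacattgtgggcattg
Psmc6: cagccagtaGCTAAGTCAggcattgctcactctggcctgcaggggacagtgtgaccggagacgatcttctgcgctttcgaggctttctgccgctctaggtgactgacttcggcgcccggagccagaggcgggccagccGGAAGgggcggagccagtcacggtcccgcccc
Psmd14: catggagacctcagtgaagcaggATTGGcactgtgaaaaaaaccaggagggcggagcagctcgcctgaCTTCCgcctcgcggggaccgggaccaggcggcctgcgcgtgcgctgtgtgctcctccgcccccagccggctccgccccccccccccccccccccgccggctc
Psmb5: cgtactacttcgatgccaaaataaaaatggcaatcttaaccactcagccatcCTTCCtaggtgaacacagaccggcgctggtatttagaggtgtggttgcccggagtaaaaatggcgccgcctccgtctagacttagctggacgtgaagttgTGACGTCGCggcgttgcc
Psma5: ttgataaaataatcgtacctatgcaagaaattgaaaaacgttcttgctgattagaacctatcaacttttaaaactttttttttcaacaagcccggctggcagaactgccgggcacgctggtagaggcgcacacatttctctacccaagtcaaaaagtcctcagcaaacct
Psma7: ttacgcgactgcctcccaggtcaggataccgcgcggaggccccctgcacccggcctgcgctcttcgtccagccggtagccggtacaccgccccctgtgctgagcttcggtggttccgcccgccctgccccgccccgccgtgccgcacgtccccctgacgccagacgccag
Psme1: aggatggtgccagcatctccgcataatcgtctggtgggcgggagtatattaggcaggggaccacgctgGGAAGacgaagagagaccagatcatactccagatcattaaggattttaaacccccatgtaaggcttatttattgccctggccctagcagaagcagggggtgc

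Some values cannot be tied to 1 gene with certainty. Of the 48 genes 5 have at least 40% of their 50-base stretches in other genes (Psma5, Psmb3, Psmb5, Psme2 and Psme2b) and 23 have none, and how reads that fit several places were counted is not given in the sources used here. Exons of 16 overlap a protein-coding gene on the other strand.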

How the data were processed

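RNA was sequenced in 16 libraries (4 groups of 4) after the Illumina Stranded mRNA Prep. Per the labels and the methods, the authors aligned reads to GRCm39 with STAR 2.7.1a, counted them per gene with featureCounts 2.0.6 of Subread and compared groups with DESeq2 1.40.2; the deposited values are raw counts. Annotation and strand setting of the counting are not given in the sources used here.

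From these counts, genes with at least 10 in total were tested with edgeR 4.0.16 (TMM factors, 1 coefficient per group, quasi-likelihood test, Benjamini-Hochberg adjusted p under 0.05) in R 4.3.3 with limma 3.58.1. Normalized counts are counts divided by the library's TMM-scaled total, times the geometric mean of those totals. The standard error is the absolute log2 fold change over the root of F. Levels between genes are given per kb of coding sequence of the Ensembl canonical transcript (GENCODE vM39). The edgeR fit was tested on simulated counts with known fold changes. These had the same fixed spread for all genes and no lowered stretch, so the test does not bear on the libraries that stood apart. Tables and plots used Python 3.11.15, numpy 2.4.6, pandas 2.3.3 and matplotlib 3.10.9.

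Every proteasome gene could be named; values in each library are given, within each class, for the gene with the largest absolute log2 fold change at 48 h, at 7 days and in the difference, and for Psmb5, Psmb6 and Psmb7. Genes and lists were chosen with earlier results of these data known. Motifs, promoter windows and the search for shared 50-base stretches were chosen after values were seen.

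Alternatives were DESeq2 1.42.0, its size factors in edgeR, total counts as the only scaling, count minimums of 1 in any library or 10 in every library, a log2 fold change of at least 1, the libraries of each comparison alone, the replicate number as a block, an offset for the lowered genes of sorafenib 48 h replicate 2, and each library left out. Some items of these comparisons are not reported here.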

Additional observations from a re-analysis of the deposited data

Results flagged for a closer look

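In 19 of 192 groups of 4 libraries 1 library lay far from the other 3 (its gap to the nearest, set against the range of the group, was past Dixon's critical value); chance alone gives about 1 in 20. Of the 19, 6 were sorafenib 48 h replicate 2. Inside its lowered stretch the normalized counts of that library were 3194 for Psmb1, 7309.7 for Psmd2, 726 for Psmg1 and 804 for Psmg2, each below its replicates. Outside the stretch it had 4467 for Psmd11 and 1719 for Psmd5, each above its replicates.

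The other 13 were spread over several libraries. DMSO 7 days replicate 1 had 2052 normalized counts of Psmb3, 4841 of Psmb6 and 2891 of Psmd13, all low, and 6009 of Psmc6, which was high; DMSO 7 days replicate 2 had 9546 of Psmd1, also high. Sorafenib 48 h replicate 1 was low for Psmc1 (4295) and Psmc2 (4678), and sorafenib 48 h replicate 4 for Psmf1 (885). DMSO 48 h replicate 1 was high for Psmc1 (4238). With sorafenib at 7 days, replicate 1 was low for Psmd6 (3024), and replicate 4 was low for Psmc3 (5540.3) and high for Psmg1 (1185) and Psme2b (32.5).

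For 26 genes the response to sorafenib at 7 days differed from that at 48 h by edgeR's test of the difference, 1 of them higher and 25 lower, where 15.5% and 21.3% of all tested genes were. The differences on the log2 scale were, in the core, Psma2 -0.24, Psma3 -0.15, Psma4 -0.29, Psma5 -0.16, Psmb3 -0.32, Psmb5 -0.28 and Psmb7 -0.18. In the base they were Psmc2 -0.34, Psmc3 -0.19, Psmc4 -0.33, Psmc5 -0.36, Psmd1 -0.33 and Psmd4 -0.19, and in the lid Psmd3 -0.26, Psmd6 -0.31, Psmd7 -0.28, Psmd8 -0.35, Psmd11 -0.18, Psmd12 -0.21, Psmd13 -0.42 and Psmd14 -0.38. For the others they were Psmb10 -0.33, Psmd5 0.37, Psme3 -0.47, Psme4 -0.31 and Psmc3ip -0.21. No cause was tested.

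Some of these calls were lost in other fits. That of Psmc3ip was lost with DESeq2, with its factors in edgeR, with at least 10 counts in every library, with total counts only, the offset or the replicate number as a block. It was also lost without DMSO 48 h replicate 2, 3 or 4, sorafenib 48 h replicate 1, 3 or 4, any library of DMSO at 7 days, or sorafenib 7 days replicate 2 or 3. That of Psma5 was lost with at least 10 counts in every library, with total counts only and with the size factors of DESeq2. Leaving out DMSO 48 h replicate 1, 3 or 4, sorafenib 48 h replicate 3 or 4, DMSO 7 days replicate 3 or 4, or sorafenib 7 days replicate 1, 2 or 3 removed it too. That of Psma3 was lost with total counts only, at least 10 counts in every library, and without DMSO 48 h replicate 3 or 4 or sorafenib 48 h replicate 3. Psmb7, Psmc3, Psmd4, Psmd11 and Psmd12 lost theirs with total counts only.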

How the results depend on the processing

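With DESeq2, its size factors in edgeR, other scalings, count minimums or designs, 1009 of the values for genes and lists kept direction and call, 39 gained a call, 135 lost one, 57 moved and 2 took the other sign where a call was made; with 1 library left out at a time these were 2134, 31, 71, 66 and 2. These values are for single genes and for counts and medians of the whole list, not for medians of classes. Sign changes of single genes with a call were those of Psmd2 and Psmg1 at 48 h, both inside the lowered stretch of sorafenib 48 h replicate 2: Psmd2 had a log2 of 0.13 with an offset for that stretch and of -0.10 to 0.12 with 1 library left out at a time, and Psmg1 of 0.12 and of -0.11 to 0.15, the highest in both without that library.

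Asking for a log2 fold change of at least 1 left 0 of the 48 genes higher and 0 lower in each of the 5 comparisons, since no called gene reached that size. The 7 lower calls at 48 h became 14 with total counts only, 13 with at least 10 counts in every library and 11 with the offset. Over all tested genes these fits called 6481 of 20444, 4751 of 12158 and 6008 of 20444 lower. The main fit called 5653 of 20444 lower. The 23 lower calls at 7 days became 15 with at least 1 count in any library and 16 with total counts only. Over all tested genes 5345 of 27313 and 5414 of 20444 were then lower, against 5696 of 20444 in the main fit. The 1 lower call over time with DMSO became 3 with only the libraries of that comparison and 3 with the offset. Over all tested genes 5639 of 18638 and 5686 of 20444 were then lower, against 5221 of 20444 in the main fit. The 4 lower calls over time with sorafenib became 2 with DESeq2, 1 with its size factors in edgeR, 2 with total counts only, 1 with at least 10 counts in every library and 1 with only the libraries of that comparison. In the same order 4113, 4081 and 3935 of 20444 tested genes were lower, then 3631 of 12158 and 3687 of 18339. The main fit called 4550 of 20444 lower. The median at 48 h (0.07) was 0.00171 with total counts only, 0.11 with at least 1 count in any library and 0.0326 with at least 10 in every library, and that at 7 days (-0.09) was -0.0629, -0.0628 and -0.0633 in the same order. The cause was not tested. The offset also moved genes outside the lowered stretch: of the 4 lower calls it added at 48 h, those of Psma1, Psma2 and Psmb2 lie outside and that of Psmg2 inside. The comparison of responses needs all 4 groups, so it has no value from fewer.

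With 1 library left out at a time, 19 to 25 genes were higher and 7 to 11 lower at 48 h, and 7 to 9 higher and 19 to 25 lower at 7 days. The difference had 1 to 1 higher and 22 to 28 lower, the time course 36 to 39 higher and 1 to 3 lower with DMSO and 20 to 26 higher and 2 to 6 lower with sorafenib. The medians ranged from 0.0340 to 0.117 at 48 h and from -0.0905 to -0.0732 at 7 days.

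The labels do not say whether replicate numbers pair the samples. Same-numbered libraries had correlations of -0.181 to 0.122 in their deviations from group means. These cannot decide it, because libraries of different numbers were not set beside them. With the replicate number as a block Psmd4 and Psmb2 were not called at 7 days and the 4 lower calls over time with sorafenib were 2; over all genes the block called 10644 genes at 48 h, 11027 at 7 days, 6987 in the difference, 9531 over time with DMSO and 7482 with sorafenib.

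These data reach mRNA of 1 cell line and 4 libraries per group, and speak of no protein, assembly or activity. With few counts, Psmb11 and Psme2b allow no firm statement. Changes in most subunits were under 0.5 on the log2 scale. The choice of scaling moved calls among the smaller of these, such as those of Psmc1 at 48 h (0.15) and Psmd12 in the difference (-0.21).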
